A study of Mus musculus with 10 samples.

Results

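The 38 genes described here encode proteins that copy DNA or that divide the copied chromosomes. They were taken as a list of names, and the list holds 17 DNA replication genes and 21 mitosis genes, and these subsets are described separately. All 38 were among the 28059 gene identifiers in the files, and all 38 were among the 18671 genes with enough counts to be tested.

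RNA was sequenced from whole mouse brains at embryonic stage E18.5, with the olfactory bulbs taken off, in 10 libraries of 5 genotypes with 2 libraries each. The control is labelled COP1 het, so it carries 1 altered COP1 allele. The other genotypes are labelled COP1 KO (KO here), COP1.cJun DKO (DKO), COP1.cJun.ETV1 TKO (TKO) and COP1.cJun.ETV1.ETV5 QKO (QKO), and all 4 lack COP1 by their labels. COP1 is a ubiquitin ligase, and cJUN, ETV1 and ETV5 are transcription factors among its known substrates, so the series removes substrates step by step from a brain without the ligase. The sources used here give no promoter or strain that drives the deletions, no litter, no sex and no strain background. Libraries are numbered by accession, and equal numbers in different groups do not mark a pair. Whether the libraries of 1 group are from different litters is not stated. The p-values therefore cover only the spread among these samples. The 2 control libraries differ in sex by Xist and Y-linked RNA, and so do the 2 DKO libraries, so their spread is not only technical. In KO, TKO and QKO the spread may be technical.

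Whole-gene RNA checked the labels only in part. Jun stood between 14.99 and 16.1 nRPKM in control and KO libraries and between 1.44 and 2.94 nRPKM in the libraries labelled DKO, TKO and QKO. (nRPKM is the deposited level, an RPKM that the authors rescaled library by library.) Cop1 lay at 4.74 and 5.0 nRPKM in the controls and between 3.57 and 4.39 nRPKM elsewhere, and Etv1 was higher in the libraries labelled TKO (3.80 and 3.67 nRPKM) than in those labelled DKO (1.98 and 2.11 nRPKM). In the libraries labelled QKO, Etv1 was at 4.71 and 4.38 nRPKM, against 4.82 and 4.95 nRPKM in control, and Etv5 was at 3.97 and 4.11 nRPKM, above KO (2.65 and 2.68), DKO (3.25 and 3.08) and TKO (3.75 and 3.93). These Etv1 and Etv5 levels run against the labels. Which exons were deleted is not given, so RNA from the rest of a gene can be counted and the Cop1, Etv1 and Etv5 levels do not settle the genotype. The directions below therefore rest on the labels for TKO and QKO. Library totals ranged from 31996944 counts in DKO 2 to 54594523 in KO 1, and the 38 genes held between 0.0997 and 0.113% of a library's counts. The lowest count of any member was 125 (Cdc6 in DKO 2). Control 1 and DKO 1 had the Xist level of female tissue and the other 8 libraries did not, so sex is unbalanced in comparisons of control or DKO with KO, TKO or QKO.

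A dividing cell first licenses its origins by loading the MCM ring, a helicase of 6 MCM proteins, and then copies DNA with polymerases held on the template by the sliding clamp PCNA. It then condenses its chromosomes, attaches them to a spindle through kinetochores and splits. Replication genes are transcribed from late in the gap before DNA synthesis, largely under E2F factors, and mitosis genes peak later, largely through CHR elements (cell cycle genes homology region) bound by MuvB complexes and CCAAT boxes bound by NF-Y. In the late embryonic brain most cells are neurons that no longer divide. Cell types known to divide at this stage include radial glia, intermediate progenitors, granule cell precursors, oligodendrocyte precursors and endothelium, and which of them the counted transcripts came from was not tested. In bulk RNA, fewer cells of a type and less RNA per cell cannot be told apart.

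Promoter sequence is shown for 4 members on which the results turn: Mki67 and Kif23, which had the largest negative log2 fold changes of the mitosis genes in DKO against KO, and Hjurp and Mcm6, which passed the test. Each is the run of 250 bases before the annotated start, 5′ to 3′ on the gene's own strand, from RefSeq for GRCm38.p6. Mki67 is at chr7:135716380-135716629, Kif23 at chr9:61946800-61947049, Hjurp at chr1:88277580-88277829 and Mcm6 at chr1:128359706-128359955, all on the minus strand. Capitals mark every match to a CHR element (TTTGAA or TTCGAA), an E2F site (TTTCCCGC, TTTCGCGC, TTTGCCGC or TTTGGCGC) or a CCAAT box (CCAAT), on either strand, with overlapping matches counted separately.
Mki67: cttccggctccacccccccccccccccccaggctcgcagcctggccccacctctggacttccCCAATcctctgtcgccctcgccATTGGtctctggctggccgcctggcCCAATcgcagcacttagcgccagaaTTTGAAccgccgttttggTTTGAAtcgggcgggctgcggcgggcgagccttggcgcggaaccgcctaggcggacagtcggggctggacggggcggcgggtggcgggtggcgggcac
Kif23: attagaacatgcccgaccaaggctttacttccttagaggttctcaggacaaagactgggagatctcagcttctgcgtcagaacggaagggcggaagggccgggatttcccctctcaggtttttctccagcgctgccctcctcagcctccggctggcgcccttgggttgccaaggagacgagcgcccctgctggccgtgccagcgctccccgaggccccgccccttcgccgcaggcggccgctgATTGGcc
Hjurp: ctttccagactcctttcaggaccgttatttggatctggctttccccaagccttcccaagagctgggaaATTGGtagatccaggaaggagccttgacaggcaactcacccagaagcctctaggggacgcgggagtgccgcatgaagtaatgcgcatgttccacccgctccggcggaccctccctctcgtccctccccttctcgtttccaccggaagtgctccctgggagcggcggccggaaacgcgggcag
Mcm6: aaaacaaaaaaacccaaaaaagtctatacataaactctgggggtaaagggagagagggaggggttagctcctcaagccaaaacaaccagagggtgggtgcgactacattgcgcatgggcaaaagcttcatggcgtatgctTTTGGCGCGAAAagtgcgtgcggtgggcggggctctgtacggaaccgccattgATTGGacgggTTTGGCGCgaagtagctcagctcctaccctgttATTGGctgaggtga
The Mki67 promoter holds 2 CHR matches and 3 CCAAT matches, and those of Kif23 and Hjurp hold 1 CCAAT match each and neither other motif. The Mcm6 promoter holds 3 E2F matches, of which a pair overlaps, and 2 CCAAT matches.

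The table of promoters held 32 promoters of 31 members, since Mcm7 has 2, and none was used for Aurkb, Ccna2, Ccne2, Gins2, Kif20a, Mcm4 and Tpx2. A CHR match was in 8 of 17 mitosis promoters (47.1%), in 3 of 15 replication promoters (20%) and in 17.1% of all 32851 promoters. An E2F match was in 1 of 17 mitosis promoters (5.88%), in 5 of 15 replication promoters (33.3%) and in 1.86% of all. CCAAT was in 16 of 17 mitosis promoters (94.1%), in 12 of 15 replication promoters (80%) and in 33.8% of all. In these windows, then, CHR letters were more frequent before mitosis genes and E2F letters before replication genes. For the factors deleted here, the letters of an AP-1 site bound by JUN proteins (TGACTCA) were in 0 of the 32 member promoters against 4.46% of all, and those of a CRE (TGACGTCA), which JUN with ATF partners can bind, were in 1 mitosis promoter (5.88%, Cenpe) and 1 replication promoter (6.67%, Mcm5) against 1.55%. The letters of an ETS site (CCGGAAGT), the class bound by ETV proteins, were in 3 of 17 mitosis promoters (17.6%, Aurka, Cenpf and Hjurp) and 1 of 15 replication promoters (6.67%, Tyms) against 2.88%. In the Hjurp sequence above this match is in lower case. A match is a description of letters and not of binding.

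All members were expressed in every library. Levels are per length, which allows a comparison between genes with 1 limit. Only reads aligned uniquely were counted, so a gene with near-identical copies may read low. Levels ran from a mean of 0.868 nRPKM over the 10 libraries for Cdc6, which loads the MCM ring, to 16.7 nRPKM for Mcm6, a subunit of that ring. Next to Mcm6 stood Rrm1 (16.5 nRPKM), the large subunit of the enzyme that makes deoxynucleotides, and Mcm7 (16.4 nRPKM), another ring subunit. Next to Cdc6 stood Ccnb1 (2.03 nRPKM), the cyclin that drives entry into mitosis, and Birc5 (2.04 nRPKM), a subunit of the chromosomal passenger complex. The median member stood at 7.503 nRPKM among replication genes and at 4.86 nRPKM among mitosis genes.

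Most members varied little. The median coefficient of variation over the 10 libraries was 6.92% for replication genes and 8.41% for mitosis genes, and in all but 1 member the highest library was at most 1.62 times the lowest. The exception was Hjurp, the chaperone that places the centromeric histone CENP-A, with a coefficient of variation of 35.3% and a highest level 2.76 times its lowest. As a description over 10 libraries that share depth and groups, the median Pearson correlation of log2 levels was 0.493 between pairs of mitosis genes (181 of 210 pairs above 0), 0.233 between pairs of replication genes (104 of 136) and 0.262 across the subsets. Hjurp correlated with the other mitosis genes at a median of -0.44, so it did not vary with the subset it is listed in.

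**Figure D1:**
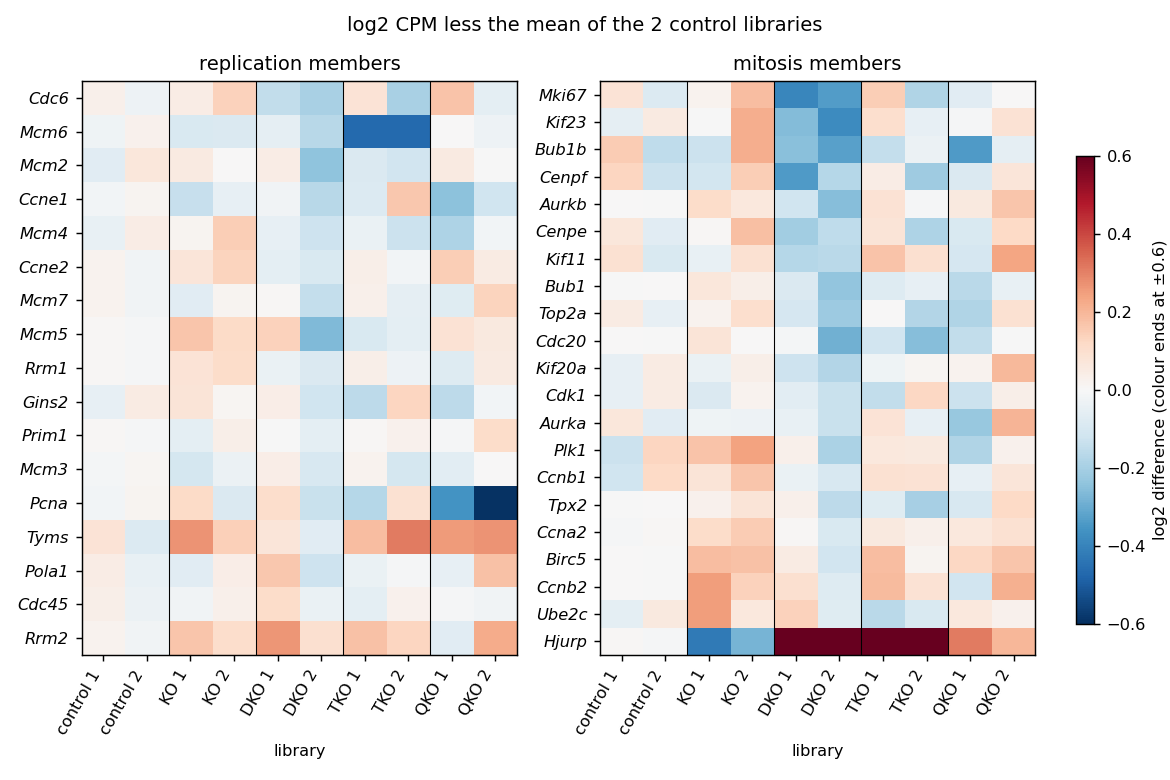
Level of each of the 38 members in each of the 10 libraries, as the log2 difference of CPM (counts scaled to a common total) from the mean of the 2 control libraries, with replication and mitosis members in separate panels. The Hjurp row runs against the other mitosis rows and is off the end of the colour scale in the DKO and TKO libraries, the Mcm6 row is low in both TKO libraries, and most mitosis rows are low in both DKO libraries.

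The largest shared difference of the mitosis genes was between the libraries labelled DKO and KO, the step that removes cJUN. Of 21 mitosis genes, 20 had a negative log2 fold change, with a median of -0.19, whereas 12 of 17 replication genes were below 0 with a median of -0.04 and the median of all genes tested was -0.00. Single differences were small: the edgeR test called 1 of 38 members (adjusted p under 0.05, 0.568% of all genes), and that was Hjurp, in the opposite direction. At an unadjusted p under 0.05, 12 members were lower, against 8.62% of all genes, and 10 of these were mitosis genes. That count of 10 was 5 without KO 1, 3 without KO 2, 8 without DKO 1, 3 without DKO 2 and 6 in DESeq2. Hjurp was the 1 member higher by that measure (5.21% of all genes).

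Mki67, the proliferation marker Ki-67 that coats mitotic chromosomes, stood at 9.92 and 11.1 nRPKM in KO and at 7.46 and 7.81 nRPKM in DKO. It was at 10.4 and 9.30 nRPKM in control, 10.9 and 8.66 in TKO, and 9.35 and 9.87 in QKO. Both DKO libraries lay below the other 8. The log2 fold change from KO to DKO was -0.47 ± 0.10 (SE, n = 2 per group), a level 1.39-fold lower, and missed the threshold at an edgeR adjusted p of 0.0821. It passed in DESeq2 (adjusted p = 0.00178) and with no filter on low counts (adjusted p = 0.00378), and over its alternatives the adjusted p ranged up to 0.658.

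Kif23, the kinesin of the central spindle needed for the last cut between daughter cells, was at 3.22 and 3.75 nRPKM in KO and at 2.70 and 2.50 nRPKM in DKO. The other 6 libraries lay between 3.12 and 3.47 nRPKM, so both DKO libraries were again the lowest. Its log2 fold change from KO to DKO was -0.42 ± 0.11 with an edgeR adjusted p of 0.149. Aurkb, the kinase of the chromosomal passenger complex, was at 4.64 and 4.50 nRPKM in KO and 3.96 and 3.62 nRPKM in DKO, and no other library was below 4.28 nRPKM. Its log2 fold change was -0.27 ± 0.10, with an edgeR adjusted p of 0.277. Top2a, the topoisomerase that untangles sister chromatids, was at 16.9 and 17.9 nRPKM in KO and 15.6 and 14.4 nRPKM in DKO, a log2 fold change of -0.22 ± 0.09 with an edgeR adjusted p of 0.333. The DKO libraries did not stand apart for Top2a, since TKO 2 (14.8 nRPKM) and QKO 1 (14.8 nRPKM) lay between them.

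Counted over the subset, both DKO libraries lay below both KO libraries in 17 of 21 mitosis genes and in 5 of 17 replication genes, against 23.2% of all genes tested. They lay below all other 8 libraries in 5 mitosis genes (Mki67, Aurkb, Kif11, Kif23 and Kif20a) and 1 replication gene (Ccne2), against 3.64% of all genes tested. Kif11 is the motor that pushes spindle poles apart and Kif20a a kinesin of cytokinesis. The 17 genes are not independent measurements, since they come from the same cells and libraries.

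Among replication genes, Rrm1 was at 17.3 and 17.7 nRPKM in KO and 16.0 and 15.5 nRPKM in DKO, a log2 fold change of -0.16 ± 0.06 with an edgeR adjusted p of 0.3. Ccne2, a cyclin that drives entry into DNA synthesis, was at 4.85 and 5.07 nRPKM in KO and 4.45 and 4.35 nRPKM in DKO, with a log2 fold change of -0.18 ± 0.08 and an edgeR adjusted p of 0.351. Mcm4 (log2 fold change -0.17 ± 0.08) and Tyms, which makes thymidylate (-0.20 ± 0.10), did not pass either. The clamp Pcna did not separate the groups, at 9.38 and 8.15 nRPKM in KO and 9.36 and 7.96 nRPKM in DKO, a log2 fold change of -0.02 ± 0.13. Neither did the ring subunit Mcm2, at 7.90 and 7.63 nRPKM in KO and 7.86 and 6.49 nRPKM in DKO, a log2 fold change of -0.12 ± 0.10.

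The replication median rests on which DKO library is used. All 17 replication genes were lower in DKO 2 than in DKO 1, by a median of 0.15 on the log2 scale, and 16 of 21 mitosis genes were too. DKO 2 had the smallest total of all libraries and DKO 1 the Xist level of female tissue. Against KO, the replication median was 0.02 without DKO 2 and -0.14 without DKO 1. The mitosis median lay between -0.23 and -0.13 whichever KO or DKO library was left out, and 19 or 20 of the 21 genes stayed below 0. Across the 38 members the difference between DKO 2 and DKO 1 correlated with the log2 gene-model length implied by count and nRPKM (Pearson r = 0.559, against 0.0773 over 18657 genes), as a description of these libraries. The same r was 0.634 for KO 2 less KO 1, -0.572 in TKO, -0.487 in control and 0.0241 in QKO, so such a relation was not particular to DKO. For DKO against KO the r over members was 0.00215, with Hjurp included, whose log2 fold change of 1.08 was opposite to the other mitosis genes. No r was computed without Hjurp, so this value does not show whether the other members' differences follow length. The part of sex, depth and RNA quality in these values was not tested beyond this.

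**Figure D2:**
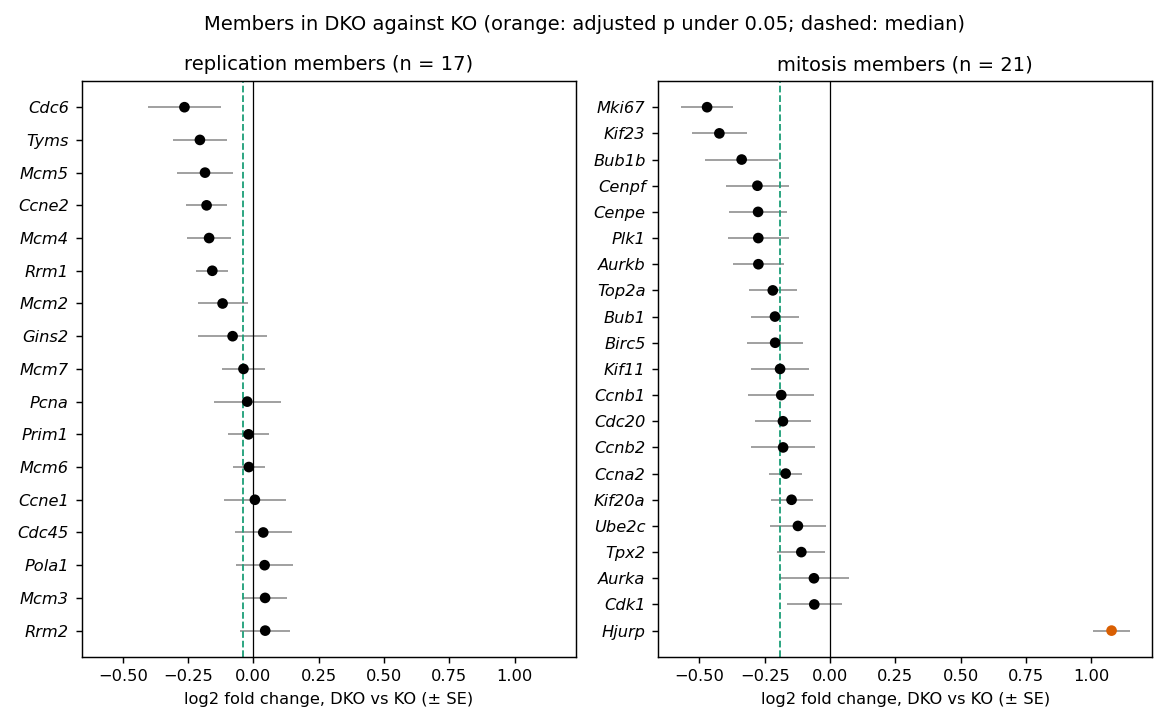
Log2 fold change (± SE) of each member in DKO against KO, on the x axis, with members as rows in separate panels for replication and mitosis. The dashed line is the median of each panel, -0.04 for replication and -0.19 for mitosis, and Hjurp, the only member past the threshold (orange), lies far to the right.

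Genes of the same processes outside the 38, on lists drawn up by function with earlier results of these data known, gave similar values. They were measured in the same libraries as the 38, so they are not a second test of the difference. In DKO against KO, 67 of 70 other mitosis genes were below 0, with a median log2 fold change of -0.19. Of these, 22 were lower and 0 higher at an unadjusted p under 0.05, and 1 passed the adjusted threshold. That gene was Iqgap3, a scaffold protein of the cortical actin skeleton, at 1.74 and 1.86 nRPKM in KO and 1.22 and 1.09 nRPKM in DKO (log2 fold change -0.64 ± 0.11, edgeR adjusted p = 0.0304). Of 45 other replication genes, 29 were below 0 with a median of -0.06, and edgeR called 0, with 8 lower and 1 higher at an unadjusted p under 0.05 and 1 lower in DESeq2. Of 20 genes for E2F, RB and MuvB proteins, 15 were below 0 with a median of -0.04, and edgeR and DESeq2 called 0, with 2 lower and 1 higher at an unadjusted p under 0.05. The shares of all genes given above for this comparison were 8.62% lower and 5.21% higher without adjustment and 0.568% called by edgeR. They apply to these lists and to the marker lists below, and the 2 of 20 are close to the first. DESeq2 called 228 genes in all in this comparison.

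Levels of cell-type markers also differed between the libraries labelled KO and DKO. The summed level of 9 oligodendrocyte precursor markers was 234.9 to 269.4 nRPKM in KO and 183.8 to 190.8 nRPKM in DKO, and 9 of 9 were lower in DKO at an unadjusted p under 0.05, while edgeR called 0 after adjustment and DESeq2 called 4. For 13 radial glia markers the sum was 1126 to 1140 nRPKM in KO and 1019 to 1033 nRPKM in DKO, with 10 of 13 below 0 and 3 called lower. Of 11 listed erythroid genes, 7 could be tested. Their sum was 137.5 to 176.9 nRPKM in KO and 414.0 to 518.3 nRPKM in DKO, with 7 of 7 above 0 and 3 called higher. None of the first 2 lists' markers was at 0 in any library. The erythroid gene Hemgn, at 0 in 1 library, was not tested and is not in the sum. Markers of intermediate progenitors (81.5 to 82.7 nRPKM in KO, 78.6 to 84.1 nRPKM in DKO) and granule cell precursors (90.5 to 90.8 and 88.3 to 91.9 nRPKM) overlapped. The sum of 10 endothelial markers was 101.1 to 104.7 nRPKM in KO and higher in DKO, at 110.7 to 110.97 nRPKM. Of these markers 6 were above 0 and 4 below, with 0 called by edgeR or DESeq2. The part of these cell types in the difference of the mitosis genes was not tested. Of 12 listed HOX genes, which mark the caudal hindbrain and spinal cord, 11 could be tested. Their sum was 0.737 to 1.76 nRPKM in KO and 1.87 to 3.69 nRPKM in DKO, with Hoxa5 at 0 in 1 library. Hoxb6, at 0 in 4 libraries, was not tested and is not in the sum. The part of the HOX genes in the difference was not tested. Neuron markers, the identity of most of the tissue, summed to between 2490 and 2737 nRPKM in every library. Their sum was 2490 to 2516 nRPKM in KO and 2614 to 2737 nRPKM in DKO. Such sums weigh the highest genes most. Over all libraries the neuron marker Tubb3 alone ran from 974 to 1209 nRPKM, the radial glia marker Fabp7 from 497 to 655 nRPKM and the erythroid gene Hba-a2 from 62.2 to 315 nRPKM. Of 12 neuron markers, 7 were above 0 and 5 below, with 0 called by edgeR and 1 called higher by DESeq2.

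**Figure D3:**
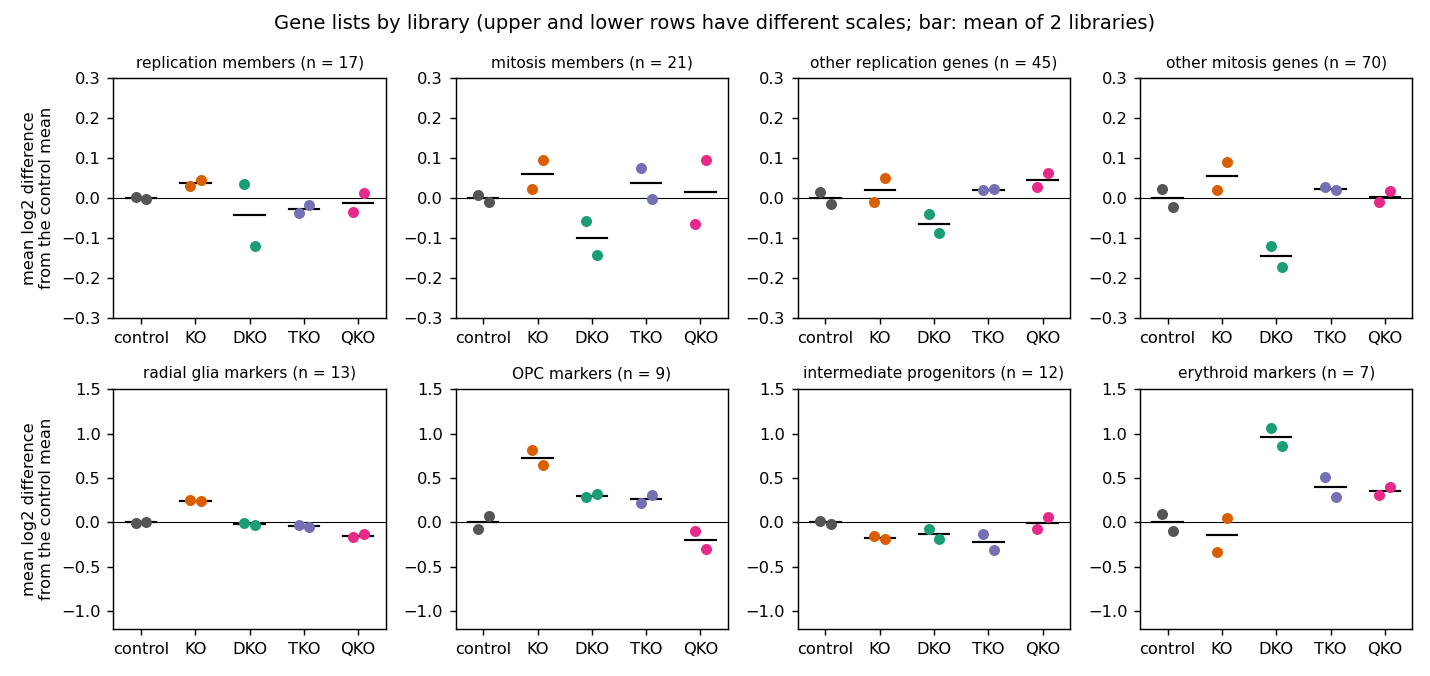
Mean log2 difference of each gene list from the control mean, 1 dot per library and a bar at the mean of 2 libraries. The upper row shows replication and mitosis members and the other genes of each process, and the lower row, on a wider scale, 4 marker lists. The DKO dots are lowest for mitosis members on average and for the other mitosis genes, while oligodendrocyte precursor markers are highest in KO and erythroid markers highest in DKO.

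In the earlier step, from control to KO, no member passed and the differences were small. The median log2 fold change was 0.03 for replication and 0.06 for mitosis genes, against 0.01 for all genes tested, and 28 of 38 members were above 0. The edgeR test called 0 of 38 (0.734% of all genes), and DESeq2 called 1 member and 239 genes in all. At an unadjusted p under 0.05 there was 1 lower (4.21% of all genes) and 0 higher (6.22% of all genes). That 1 gene was Hjurp. Mki67 had a log2 fold change of 0.10 ± 0.10, Top2a 0.06 ± 0.09, Pcna 0.02 ± 0.13 and Mcm2 0.03 ± 0.10. The mitosis genes with the smallest p after Hjurp were Ccna2, the cyclin of DNA synthesis and early mitosis, at 0.13 ± 0.06, the mitotic kinase Plk1 at 0.20 ± 0.12 and Birc5 at 0.18 ± 0.11. The replication genes with the smallest p were Tyms at 0.21 ± 0.10, Rrm1 at 0.10 ± 0.06, Mcm6 at -0.09 ± 0.06 and Rrm2, the small subunit of ribonucleotide reductase, at 0.14 ± 0.10. None of these was near the threshold, with edgeR adjusted p from 0.502 to 0.66. Without KO 2 the mitosis median was 0.01 with 9 of 21 genes below 0, and without KO 1 it was 0.10. Cell-type markers differed in both directions in this step. Of 13 radial glia markers 11 were above 0, with 3 called higher, and of 9 oligodendrocyte precursor markers 9 were above 0, with 7 called higher. Of 9 granule cell precursor markers 9 were below 0, with 1 called lower, and of 12 intermediate progenitor markers 9 were below 0, with 2 called lower. All 11 tested HOX genes were below 0, with a median of -3.44 and 6 called lower. The part of these lists in the members' values was not tested.

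The next step, from DKO to TKO, had the opposite sign for mitosis genes. This comparison uses the DKO libraries of the previous step, so the signs are not independent. Of 21 mitosis genes, 18 were above 0 with a median log2 fold change of 0.13, and of 17 replication genes 9 were above 0 with a median of 0.00, as for all genes tested. edgeR called 0 of 38 members (0.0911% of all genes). DESeq2 called 1 member, Mcm6, and 81 genes in all. At an unadjusted p under 0.05, 6 members were higher (7% of all genes) and 1 was lower (4.93% of all genes). The 6 were Mki67, Aurkb, Kif11, Kif23, Hjurp and Tyms. Mki67 had a log2 fold change of 0.36 ± 0.10 (edgeR adjusted p = 0.275), Top2a 0.07 ± 0.09, Pcna -0.03 ± 0.13 and Mcm2 -0.01 ± 0.10. The other mitosis genes gave 66 of 70 above 0, a median of 0.16 and 0 called by edgeR or DESeq2, with 11 higher at an unadjusted p under 0.05. Without DKO 2 the median of the 21 members was 0.06. Other lists also differed in this step. All 11 tested HOX genes were above 0 (median 1.66, 0 called by edgeR or DESeq2, 7 higher at an unadjusted p under 0.05). Of 7 erythroid genes, 6 were below 0 and 1 above, with 1 called lower. The part of these lists in the members' values was not tested.

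From TKO to QKO the subsets lay at 0.01 (replication) and 0.01 (mitosis), against -0.00 for all genes tested. The edgeR test called 2 of 38 members (0.289% of all genes), Hjurp lower and Mcm6 higher. Without adjustment, 2 were lower at a p under 0.05 (3.58% of all genes), Hjurp and Pcna, and 1 was higher (2.2% of all genes), Mcm6. Mki67 (-0.03 ± 0.10), Top2a (0.05 ± 0.09) and Mcm2 (0.13 ± 0.10) were at 0 within 2 standard errors. The QKO libraries also differed from each other: 19 of 21 mitosis genes were higher in QKO 2 than in QKO 1, by a median of 0.16 on the log2 scale, and Top2a, for example, was at 14.8 and 17.9 nRPKM. The sign of the mitosis median therefore depended on the library: it was -0.06 without QKO 2 and 0.09 without TKO 1. Marker content also differed between the QKO libraries. The 11 tested HOX genes summed to 13.7 nRPKM in QKO 1 and 2.20 nRPKM in QKO 2, and intermediate progenitor markers to 82.2 and 93.0 nRPKM. The part of these lists in the members' values was not tested.

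Set against KO, which is shared by the next 2 comparisons, TKO had a median of -0.06 for replication and -0.09 for mitosis genes, and 28 of 38 members were below 0. edgeR called 2 of 38 (0.332% of all genes), Hjurp higher and Mcm6 lower. At an unadjusted p under 0.05, 2 were lower (4.24% of all genes), Mcm6 and Ube2c, and 1 was higher (3.58% of all genes), Hjurp. Ube2c, the ubiquitin-conjugating enzyme of the anaphase-promoting complex, was at 11.4 and 10.1 nRPKM in KO and 8.61 and 9.03 nRPKM in TKO (log2 fold change -0.29 ± 0.11, edgeR adjusted p = 0.48). Cdc20, the activator of that complex, had -0.22 ± 0.11 and Tpx2, a spindle assembly factor, -0.18 ± 0.09. Mcm5 had -0.22 ± 0.11, Mcm4 -0.17 ± 0.08, Rrm1 -0.09 ± 0.06 and Mcm2 -0.13 ± 0.10. Mki67 (-0.11 ± 0.10), Top2a (-0.15 ± 0.09) and Pcna (-0.06 ± 0.13) did not pass, the last 7 genes with edgeR adjusted p from 0.695 to 0.965.

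QKO against KO gave medians of -0.02 and -0.07, with 27 of 38 members below 0. edgeR called 1 of 38 (1.29% of all genes), Hjurp higher. Pcna and Plk1 were the 2 members lower at an unadjusted p under 0.05 (6.75% of all genes), and 1 was higher (4.75% of all genes). Plk1 was at 5.18 and 5.45 nRPKM in KO and 4.09 and 4.74 nRPKM in QKO (log2 fold change -0.28 ± 0.12, edgeR adjusted p = 0.388). The spindle checkpoint kinases Bub1b and Bub1 had -0.24 ± 0.14 and -0.16 ± 0.09. Mcm4 had -0.18 ± 0.08 and Rrm1 -0.11 ± 0.06. Mki67 (-0.14 ± 0.10), Top2a (-0.10 ± 0.09) and Mcm2 (-0.00 ± 0.10) did not pass. The mitosis median was 0.03 without QKO 1.

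Both remaining comparisons used the controls. In DKO against control, 18 of 21 mitosis genes were below 0 with a median log2 fold change of -0.14, and 13 of 17 replication genes with a median of -0.04. edgeR called 1 of 38 (0.423% of all genes), Hjurp higher. At an unadjusted p under 0.05, 2 were lower (3.86% of all genes), Mki67 and Kif23, and 1 was higher (4.28% of all genes), Hjurp. Mki67 had -0.37 ± 0.10 (edgeR adjusted p = 0.268), Top2a -0.16 ± 0.09, Pcna -0.00 ± 0.13 and Mcm2 -0.09 ± 0.10. Without DKO 2 the mitosis median was -0.06. Each group here holds 1 library with the Xist level of female tissue, so sex is balanced. Other lists also differed here: all 11 tested HOX genes were below 0 (median -2.53, 0 called by edgeR and 3 by DESeq2, 11 lower at an unadjusted p under 0.05), 7 of 7 erythroid genes were above 0 with 3 called higher, and 8 of 9 granule cell precursor markers were below 0 with 0 called by edgeR, 1 by DESeq2 and 7 lower at an unadjusted p under 0.05. DESeq2 called 138 genes in all in this comparison. The part of these other lists in the members' values was not tested.

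QKO lacks COP1 and its 3 substrates by label. Against control, its median log2 fold change was 0.02 for replication and 0.02 for mitosis genes, against 0.00 for all genes tested. edgeR and DESeq2 called 0 of 38 members (0.236% of all genes by edgeR). At an unadjusted p under 0.05, 1 was lower (3.5% of all genes), Pcna, and 2 were higher (3.38% of all genes), Hjurp and Tyms. Mki67 (-0.04 ± 0.10), Top2a (-0.04 ± 0.09) and Mcm2 (0.02 ± 0.10) were within 1 standard error of 0. Of the other replication genes, Rpa3, a subunit of the protein that coats single-stranded DNA, was called higher in QKO (log2 fold change 0.88 ± 0.15, edgeR adjusted p = 0.0394). All 11 tested HOX genes were below 0 (median -0.94, 0 called by edgeR or DESeq2), with the QKO libraries unlike each other in HOX level as given above. The part of the HOX genes in these values was not tested.

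Hjurp was the member with the widest range of levels. Its level (Entrez 381280) was 9.62 and 9.51 nRPKM in control, 7.06 and 7.82 in KO, 15.2 and 16.4 in DKO, 19.5 and 18.6 in TKO, and 11.8 and 10.99 in QKO. No group overlapped another, and the order was KO, control, QKO, DKO, TKO. The share of all genes without any overlap of groups was not computed. From KO to DKO Hjurp rose by a log2 fold change of 1.08 ± 0.07, 2.11-fold (edgeR adjusted p = 2.49e-05). TKO was higher than KO by 1.35 ± 0.07 (edgeR adjusted p = 3.38e-06), QKO than KO by 0.61 ± 0.07 (edgeR adjusted p = 0.00132) and DKO than control by 0.73 ± 0.07 (edgeR adjusted p = 0.000982). From TKO to QKO it fell, with a log2 fold change of -0.74 ± 0.07 (edgeR adjusted p = 0.000583). These 5 calls passed under all 9 alternatives tried for each. The remaining steps did not pass: KO against control at -0.35 ± 0.07 (edgeR adjusted p = 0.0509), TKO against DKO at 0.27 ± 0.07 (edgeR adjusted p = 0.24) and QKO against control at 0.26 ± 0.07 (edgeR adjusted p = 0.357). The first of these passed in 4 of its alternatives.

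Hjurp lies on chromosome 1, which also carries Cop1 and the members Cenpf, Mcm3 and Mcm6. Of the 20 tested genes nearest to it in the order of RefSeq GRCm38.p6, edgeR called 0 in each of the 8 comparisons, with at most 2 at an unadjusted p under 0.05. The gene overlaps Mroh2a in that annotation, and whether the counting used strand is not given in the sources used here, so reads of the pair may be shared. Mroh2a itself lay between 0.643 and 1.22 nRPKM, and its highest levels were in KO 2 and TKO 2. Its log2 fold change had the sign opposite to that of Hjurp in KO against control (0.70 ± 0.15), DKO against KO (-0.24 ± 0.15) and QKO against KO (-0.25 ± 0.15). It had the sign of Hjurp in DKO against control (0.47 ± 0.15), QKO against control (0.45 ± 0.15), TKO against DKO (0.32 ± 0.15), QKO against TKO (-0.33 ± 0.15) and TKO against KO (0.08 ± 0.15). None of these passed, these comparisons share libraries, and the part of shared reads in the Hjurp values was not tested. Ccna2, Aurka, Kif20a, Cdc20, Mcm7, Gins2, Cdc45 and Ccne2 overlap other listed genes in the same way and share that uncertainty.

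Mcm6 (Entrez 17219) was low in the libraries labelled TKO. It stood at 13.1 and 13.1 nRPKM there, against 17.9 and 18.6 in control, 17.0 and 17.1 in KO, 17.5 and 16.3 in DKO, and 18.2 and 17.9 in QKO. Both TKO libraries lay below the other 8. The share of all genes with TKO below the other 8 libraries was not computed, and the 3.64% given above holds for DKO only. From TKO to QKO Mcm6 rose by a log2 fold change of 0.45 ± 0.06 (edgeR adjusted p = 0.00884). It fell from KO to TKO, with a log2 fold change of -0.38 ± 0.06 (edgeR adjusted p = 0.0261). Against DKO the value was -0.36 ± 0.06 and did not pass (edgeR adjusted p = 0.078), although DESeq2 called it. The calls were sensitive to single libraries: TKO against KO was lost when any 1 library of the pair was left out (edgeR adjusted p from 0.206 to 0.245), and QKO against TKO was lost without TKO 1 (0.0953) or TKO 2 (0.119) but kept without either QKO library. In those fits the log2 fold changes themselves were -0.37 and 0.46. None of the other 5 subunits of the ring passed: in TKO against KO, Mcm2 had -0.13 ± 0.10, Mcm3 0.03 ± 0.08, Mcm4 -0.17 ± 0.08, Mcm5 -0.22 ± 0.11 and Mcm7 0.01 ± 0.08. Of the 20 tested genes nearest to Mcm6, edgeR called 0 in each of the 8 comparisons, with at most 2 at an unadjusted p under 0.05.

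Pcna (Entrez 18538) was low in the libraries labelled QKO but did not pass. It stood at 6.77 and 5.78 nRPKM there, and the other 8 libraries lay between 7.71 and 9.38 nRPKM, so the ranges did not overlap. The share of all genes with QKO below the other 8 libraries was not computed either, and the 3.64% for DKO does not stand for it. The log2 fold change of Pcna in QKO was -0.50 ± 0.13 against KO (edgeR adjusted p = 0.112), -0.44 ± 0.13 against TKO (0.384) and -0.48 ± 0.13 against control (0.357). These 3 values share the QKO libraries. The value against KO passed with no filter on low counts (adjusted p = 0.0393). Among the 20 tested genes nearest to Pcna on chromosome 2, 1 was called in QKO against KO (Prokr2, lower, log2 fold change -0.66 ± 0.09), 1 in QKO against control (Prnd, higher, 0.77 ± 0.13) and 0 in QKO against TKO, where 4 had an unadjusted p under 0.05. Prokr2 stood at 4.31 and 3.79 nRPKM in QKO, near control (4.21 and 4.26 nRPKM), and was called higher in KO against control (0.59 ± 0.09). Tmem230, another neighbour, went the other way from Pcna, at 6.13 and 7.04 nRPKM in QKO and between 4.47 and 5.67 nRPKM elsewhere.

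**Figure D4:**
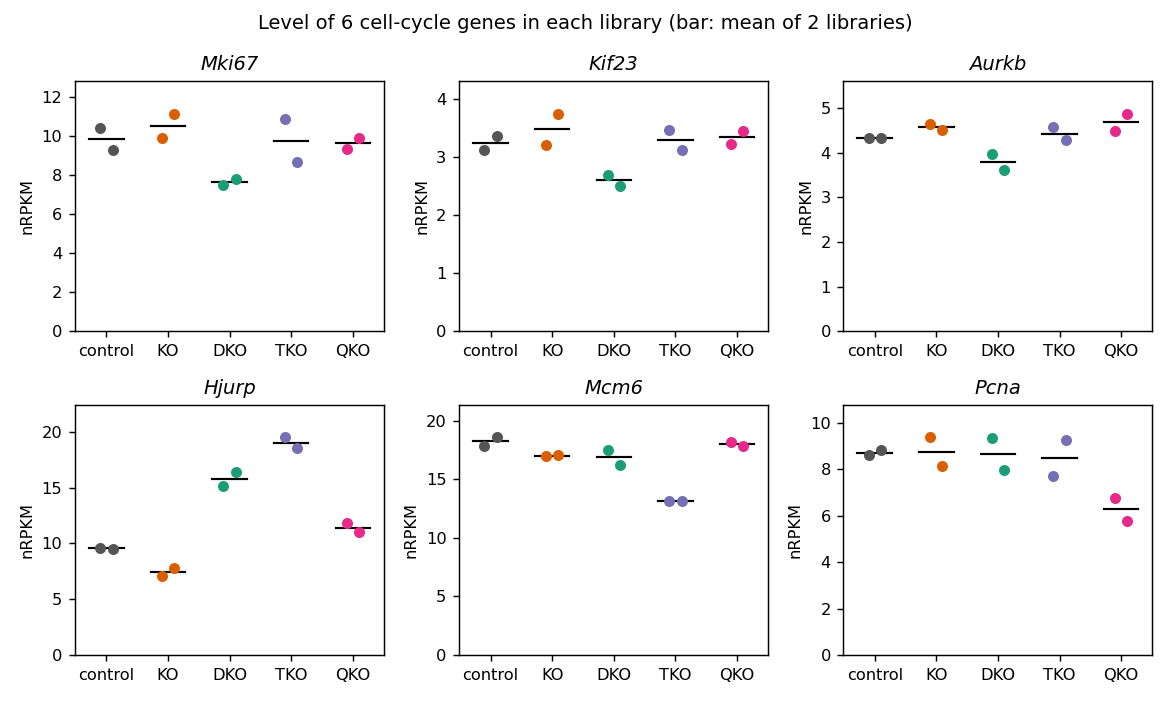
Level in nRPKM (y axis, from 0) of Mki67, Kif23, Aurkb, Hjurp, Mcm6 and Pcna in each library by genotype, 1 dot per library and a bar at the mean of 2. Mki67, Kif23 and Aurkb are lowest in both DKO libraries, Hjurp is lowest in KO and highest in TKO, Mcm6 is near 13.1 nRPKM only in the TKO libraries, and Pcna is below 7 nRPKM only in the QKO libraries.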

How the data were processed

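RNA was measured in 10 libraries, 2 for each of 5 genotypes. Per the labels' protocols, polyA RNA (1 microgram of total RNA as input) was prepared with a TruSeq kit and read as paired ends of 75 bp, 5 libraries to a lane, with the lanes not given. Per the submitters' processing notes, GSNAP (no version stated) aligned the reads to NCBIM37. Per the file headers, the deposited count is the number of reads aligned uniquely to a gene model, and the deposited nRPKM is an RPKM rescaled by the authors with 1 size factor per library. No source used here gives the annotation release or the handling of strand.

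The files list Entrez identifiers, of which RefSeq for GRCm38.p6 named 24998 (89.1%). That table gave names and gene order only, and coordinates are printed only with RefSeq promoter sequences. edgeR 4.0.16 (R 4.3.3) tested the counts (quasi-likelihood test, 5 group means over 10 libraries, TMM, filterByExpr, Benjamini-Hochberg adjustment over 18671 genes). Its residual degrees of freedom were 5 and its common biological coefficient of variation was 0.0821. Each standard error is the log2 fold change divided by the root of F. The script was tested on simulated counts with 200 changed genes. Alternatives were DESeq2 1.42.0, median-of-ratios scaling, no low-count filter, a fit of only the groups compared, a fit without the 2 libraries of high Xist, and each library left out.

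The members and gene lists were chosen with earlier results of these data known. All members were counted in every comparison. Named with values were members passing any test, the 4 of each subset with the smallest p in 4 comparisons, Mki67, Top2a, Pcna and Mcm2 throughout, the 3 highest and 3 lowest by level, and genes of the other lists that passed. Other genes named, such as Kif11 and the neighbours of Pcna, were picked after their values were seen. Of the list symbols, 1 matched no identifier.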

Additional observations from a re-analysis of the deposited data

How the results depend on the processing

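Of 72 recomputed counts of called members, 56 were within 1.5 times the value above, and of 144 recomputed medians 127 moved by less than the spread between replicates. Of 639 recomputed log2 fold changes, 6 lost and 10 gained a call, and no called value changed sign. Members called in KO vs control were 1 with median-of-ratios scaling, with no filter, with DESeq2 and with only the groups compared, against 0. They were 2 in DKO vs KO (no filter, DESeq2), 1 in TKO vs DKO (no filter, DESeq2), and 2 in QKO vs KO and in DKO vs control (no filter). With 1 library left out they were 1 to 2 in QKO vs TKO and 1 in TKO vs KO. Such fits assume that the lone library of a group varies like the others. The gains and losses are those of Hjurp, Mki67, Mcm6 and Pcna given above, and Mki67 in DKO vs control, which passed with no filter (adjusted p = 0.0394). The replication median without the 2 libraries of high Xist was -0.14 in DKO vs KO, 0.10 in TKO vs DKO and -0.12 in DKO vs control. With 1 library left out it ran from -0.14 to 0.023, from -0.054 to 0.098, from -0.12 to 0.041 and, in QKO vs control, from -0.047 to 0.027. The mitosis median ran from 0.061 to 0.17 in TKO vs DKO, from -0.060 to 0.094 in QKO vs TKO, from -0.13 to 0.030 in QKO vs KO, from -0.16 to -0.062 in DKO vs control and from -0.090 to 0.096 in QKO vs control. The cause of these shifts was not tested. With no filter edgeR called 336 genes in DKO vs KO, with DESeq2 228, and with the filter 106. No paired analysis was possible because the labels give no replicate numbers.

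Depth limits the lowest members, such as Cdc6, more than the rest. With 2 libraries a group, differences of the size seen in most members, under 0.3 on the log2 scale, did not pass the edgeR adjustment over all genes. Some larger ones, such as Mki67 in DKO vs KO (-0.47), did not pass either.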
